A study of Mus musculus with 8 samples.

Results

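The genes of the hepatic circadian clock were examined in liver of mice fed a standard chow (STD) or an atherogenic (ATH) diet. They comprised 10 genes, Arntl (which encodes BMAL1), Clock, Npas2, Cry1, Per1, Per2, Per3, Nr1d1, Nr1d2 and Dbp, and every non-control probe that the array files name for one of them was taken, whatever its value. This gave 17 probes of the 41174 non-control probes on the array, and all 17 were among the 31056 probes well above background on 3 or more of the 4 STD arrays or of the 4 ATH arrays. Clock was measured by 4 probes, Nr1d1 by 3, Cry1 and Per2 by a pair each, and the other 6 genes by 1 probe.

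RNA came from liver of male wild-type C57BL/6 mice (C57BL/6J in the study's methods) aged 14 to 17 weeks when the experiment began. Of these, 4 mice received STD chow for 4 weeks, and 4 received the ATH diet, which the labels describe as rich in fat and cholesterol, for the same time. By the study's methods the ATH diet also held cholic acid. All mice ate freely under a light/dark cycle, and liver was snap frozen after CO2 asphyxiation. The sources used here do not give the hour at which each liver was taken. Each mouse was measured on 1 Agilent Whole Mouse Genome array, a slide of long oligonucleotide probes read in a single colour (Cy3). The labels number the arrays 1 to 4 within each diet but do not tie a mouse on one diet to a mouse on the other, and p-values measure the spread between these arrays.

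The mammalian clock is a transcriptional feedback loop that runs in most cells. BMAL1 pairs with CLOCK, or with its paralog NPAS2, and activates genes through E-box elements, among them the Per and Cry genes, whose proteins return to inhibit that pair. The same pair activates Nr1d1 and Nr1d2, whose REV-ERB proteins repress Arntl and compete with ROR activators at RORE elements. It also activates Dbp, whose protein activates genes through D-box elements. In liver the transcripts of the Per genes, Nr1d1, Nr1d2 and Dbp peak at other hours of the day than Arntl.

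Signal is given as scaled log2 signal, the log2 of the processed spot intensity minus the 75th percentile of the same array. Between 72.3% and 77.8% of the spots on each array were well above background. The 75th percentile itself was 8.81 to 8.91 on the STD arrays and 9.11 to 9.46 on the ATH arrays on the log2 scale, so scaling lowered every ATH minus STD difference by 0.45 relative to unscaled values. All STD arrays shared 1 slide and 1 scan and all ATH arrays another, and slide, scan and diet cannot be told apart. Across all detected probes the STD arrays were alike (median correlation with the other arrays of their diet 0.987 to 0.990), whereas the array of ATH mouse 2 stood furthest from its diet (0.973, against 0.980 to 0.981 for the other ATH arrays). Of the 9 hepatocyte markers looked for, 8 had a probe and all 8 were detected on these arrays, with 0 passing an adjusted p of 0.05 between diets by limma (8.65% of all genes passed) and 3 an unadjusted one (28.4% of all detected probes), as by the methods' test (median difference -0.21, or 0.23 without scaling).

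No clock gene passed the threshold for diet when read at its brightest probe (0 of 10 genes at an adjusted p of 0.05, limma with Benjamini-Hochberg adjustment over all detected probes), against 8.65% of all genes. At single probes, 1 of 17 passed, against 7.99% of all detected probes, and it was a probe for Nr1d1. None passed at 1%, the threshold of the study, where 0.528% of all probes and 0.599% of all genes did. At an unadjusted p under 0.05, 3 of the 10 genes (Dbp, Nr1d1 and Nr1d2) and 4 of the 17 probes were reached, against 28.4% of all detected probes. The unequal-variance test named in the study's methods reached an unadjusted p under 0.05 for 1 of the 10 genes and for none after adjustment. After adjustment that test called only 6 probes higher and 16 lower of 31055. The difference was negative for 7 of the 10 genes, with a median of -0.17, beside a median of -0.15 over all detected probes (0.28 and 0.30 on unscaled values). Of all probes called, 949 were higher and 1533 lower on ATH; the split was 1027 and 842 with median scaling, 1040 and 878 with quantile normalization, 2536 and 398 with spike-in scaling, 6991 and 374 without scaling, and 1210 and 5184 with normexp background correction.

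**Figure D1:**
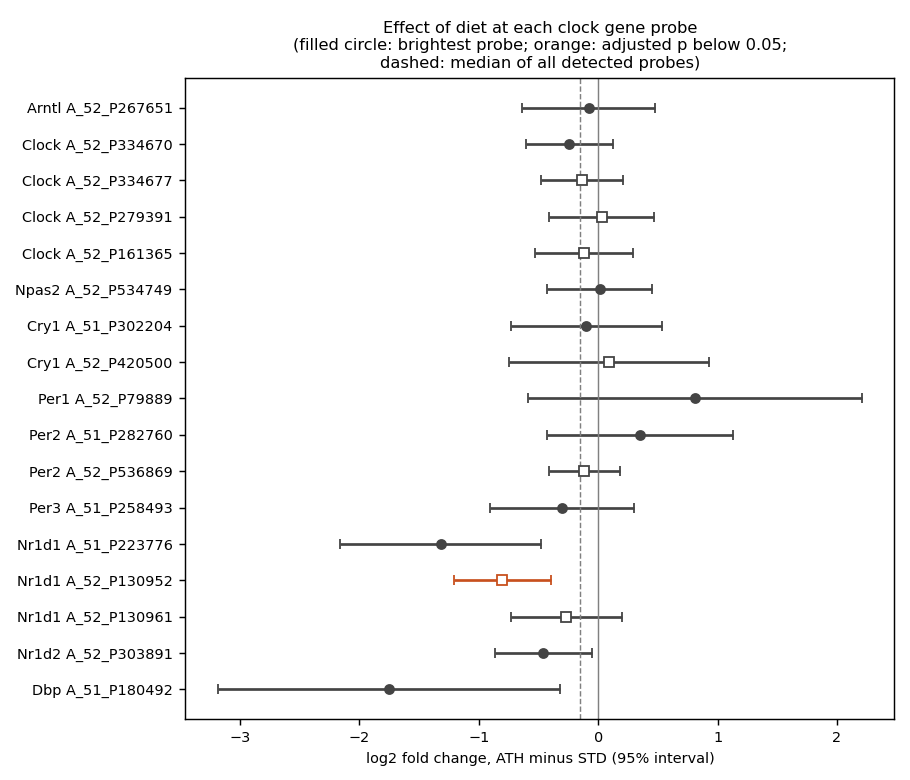
Difference between diets at each of the 17 clock gene probes, as the log2 fold change of ATH minus STD (x axis) with its 95% interval, one probe per row. Filled circles are the brightest probe of a gene, open squares the other probes. The interval of 4 probes lies wholly below 0 (Dbp, Nr1d2 and a pair for Nr1d1), and only the orange Nr1d1 probe passed an adjusted p of 0.05; the dashed line marks the median of all detected probes, -0.15.

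The activating arm was described first. Arntl, the partner that CLOCK and NPAS2 share, had scaled log2 signals of 0.70, 0.73, 1.58 and 1.09 in STD mice 1 to 4 and of 1.13, 1.35, 0.79 and 0.51 in ATH mice 1 to 4. The diets overlapped, with the highest value in STD mouse 3 and the lowest in ATH mouse 4. The log2 difference was -0.08 (SE 0.25, adjusted p = 0.855), with a 95% interval of -0.64 to 0.48. Its sign was positive on unscaled values (0.37) and after scaling on spike-in probes (0.23). Since Arntl is the gene against which the others are set below, its probe is shown in full; the array design places it at chr7:109229489-109229548 of the mm7 assembly, on the plus strand.

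Arntl probe A_52_P267651: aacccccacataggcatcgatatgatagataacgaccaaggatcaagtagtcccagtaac

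Another stretch is shown for Arntl because REV-ERB and ROR proteins, products of other genes measured here, act on it through ROREs. Among 13 RefSeq promoter windows (GRCm38.p6, 250 bases before to 50 after a gene start) that matched 9 of the 10 genes (not Per2), a RORE was found on either strand in 1 window, of Arntl, against 0.384% of all 32851 windows. It starts 26 bases after the gene start. The 30 bases around it lie at chr7:113207527-113207556 on the plus strand, with the RORE in capitals.

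Arntl RORE: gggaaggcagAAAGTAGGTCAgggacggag

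Clock, which encodes the partner of BMAL1, gave 1.68, 1.91, 1.92 and 1.66 in STD mice and 1.60, 1.85, 1.56 and 1.19 in ATH mice at its brightest probe, A_52_P334670. In 3 of the ATH mice the value lay below all STD values, while ATH mouse 2 lay among them. The log2 difference was -0.24 (SE 0.16, adjusted p = 0.343), and it was 0.20 unscaled and 0.07 scaled on the spike-in probes. The other Clock probes gave -0.14 (A_52_P334677), 0.03 (A_52_P279391) and -0.12 (A_52_P161365), and none passed the threshold. Npas2, the paralog of Clock, gave -3.87, -3.95, -3.58 and -3.82 in STD mice and -4.18, -3.30, -3.78 and -3.93 in ATH mice. The ATH values spanned both ends of the STD values, and the log2 difference of 0.01 (SE 0.19, adjusted p = 0.977) turned its sign under several settings.

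The inhibitory arm includes the cryptochrome and period genes. Cry1, which encodes a repressor of the BMAL1 and CLOCK pair, gave -3.40, -3.80, -2.60 and -3.51 in STD mice and -3.66, -2.87, -3.48 and -3.69 in ATH mice at A_51_P302204. STD mouse 3 and ATH mouse 2 were the highest of their diets, and the same pair of arrays was highest at the other Cry1 probe, A_52_P420500 (-3.31 and -3.35). Their differences between diets were -0.10 (adjusted p = 0.841) and 0.09 (adjusted p = 0.891), with 95% intervals of -0.73 to 0.54 and -0.74 to 0.93. At the brighter probe the Cry1 difference turned positive on unscaled values (0.35) and after scaling on spike-in probes (0.21).

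The E-box through which the activating pair acts, searched as the letters CACGTG (which read the same on both strands), was present in windows of Cry1 and Per1 and in 7.15% of all windows. The matches are descriptions of sequence, and no match in the other windows says only that these letters are not there. Both stretches are shown with the E-box in capitals, since Per1 and Cry1 share it, and the values of these genes across the arrays were unlike. The Cry1 stretch lies at chr10:85185059-85185164 on the minus strand, with the E-box 54 bases before the gene start. That of Per1 lies at chr11:69098733-69098838 on the plus strand, with the E-box 160 bases before it.

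Cry1 promoter: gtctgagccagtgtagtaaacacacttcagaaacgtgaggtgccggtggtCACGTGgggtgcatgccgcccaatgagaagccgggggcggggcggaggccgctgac

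Per1 promoter: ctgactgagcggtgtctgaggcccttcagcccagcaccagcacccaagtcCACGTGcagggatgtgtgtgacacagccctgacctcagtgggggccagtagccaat

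Per1, a period gene that also responds acutely to stimuli such as glucocorticoids, gave -1.90, -1.92, -2.08 and -1.78 in STD mice. In ATH mice it gave -1.91, -2.59, 0.78 and -0.71. The STD mice were nearly alike (SD 0.12), whereas the ATH mice ranged over 3.38 log2 units (SD 1.48), which placed that SD at the 99.4th percentile of all detected probes on the ATH diet. ATH mice 3 and 4 lay above every STD mouse, ATH mouse 1 within the STD range and ATH mouse 2 below it. The log2 difference of 0.81 (SE 0.62, adjusted p = 0.411) did not pass the threshold, and its 95% interval ran from -0.59 to 2.21. Without ATH mouse 3 the difference was 0.18, without ATH mouse 2 it was 1.31, and on unscaled values it was 1.26.

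Per2, the second period gene, gave -2.17, -1.17, -1.04 and -1.36 in STD mice and -1.98, -0.91, -0.52 and -0.93 in ATH mice at A_51_P282760. The mice ranked in the same order by number on both diets, lowest in mouse 1 and highest in mouse 3. The log2 difference was 0.35 (SE 0.34, adjusted p = 0.527, or 0.111 in the fit blocked on mouse number). It was 0.11 without STD mouse 1, 0.16 without ATH mouse 3, 0.65 without ATH mouse 1, 0.12 for the mean of both probes, and 0.80 on unscaled values and 0.66 after spike-in scaling. At the other Per2 probe, A_52_P536869, values ranged from -2.60 to -2.24 in STD mice and from -2.68 to -2.39 in ATH mice, the log2 difference was -0.12 (adjusted p = 0.583), and ATH mouse 3 was the lowest rather than the highest of its diet. Thus the Per2 probes disagreed in sign and in the order of the arrays. The one with the narrower range lies at chr1:91347406-91347465 of mm7 on the minus strand and has the sequence below, which is free of stop codons in 1 of its 3 forward frames.

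Per2 probe A_52_P536869: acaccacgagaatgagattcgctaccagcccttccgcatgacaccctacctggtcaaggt

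Per3, the third period gene, was near the detection limit and was not well above background in ATH mouse 1. It gave -4.62, -4.65, -4.95 and -5.17 in STD mice and -5.95, -4.88, -5.03 and -4.75 in ATH mice. Apart from ATH mouse 1 the diets covered the same range, and the log2 difference was -0.31 (SE 0.27, adjusted p = 0.475), or 0.14 on unscaled values and 0.01 scaled on spike-in probes. The D-box, searched as TTATGTAA or TTACGTAA on both strands, was found in 1 window of these genes, that of Per3, against 1.06% of all windows. The window held a pair of identical D-boxes, 197 and 150 bases before the gene start, shown in capitals because Dbp, the gene for a D-box activator, differed widely between mice. This stretch lies at chr4:151044786-151044900 on the minus strand.

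Per3 promoter: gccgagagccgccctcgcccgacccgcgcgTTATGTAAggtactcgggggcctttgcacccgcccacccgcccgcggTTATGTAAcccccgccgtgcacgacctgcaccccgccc

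**Figure D2:**
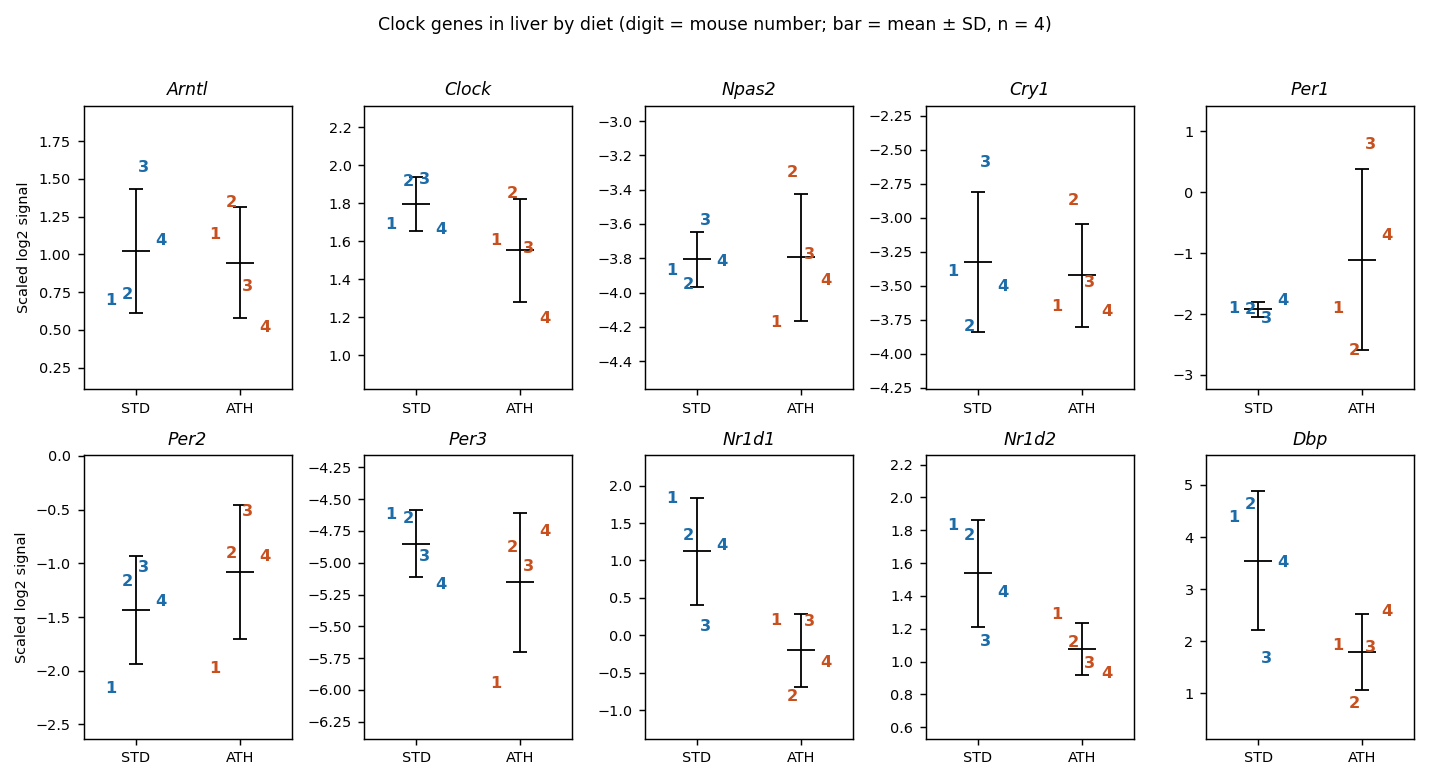
Scaled log2 signal (y axis, own range in each panel) of the brightest probe of each clock gene on the STD and ATH diets. Each digit is a mouse, numbered as in the labels, and the black bars give the mean ± SD of 4 mice. STD mouse 3 lies at an end of its diet for 9 of the 10 genes, the ATH mice are widely spread for Per1, and the STD mice are widely spread for Dbp.

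The REV-ERB genes link the loop back to Arntl. Nr1d1 encodes REV-ERBα, a heme-binding nuclear receptor that represses transcription. Its brightest probe, A_51_P223776, gave 1.83, 1.33, 0.12 and 1.20 in STD mice and 0.20, -0.82, 0.18 and -0.37 in ATH mice. Of the STD mice, only mouse 3 reached down to the ATH values. The mean was 1.12 ± 0.72 (SD, n = 4) on STD and -0.20 ± 0.49 (SD, n = 4) on ATH. The log2 difference was -1.32 (SE 0.37, adjusted p = 0.0609), with a 95% interval of -2.16 to -0.48. It passed the threshold when STD mouse 3 was left out (-1.65, adjusted p = 0.0438) and with normexp background correction (-1.19, adjusted p = 0.0314), where 20.6% of all probes passed. It did not pass under the other 18 alternatives, among them unscaled values (-0.87, adjusted p = 0.139), spike-in scaling (-1.01, adjusted p = 0.145), the mean of all 3 probes (-0.80, adjusted p = 0.0712) and the methods' test (adjusted p = 0.178).

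The second Nr1d1 probe, A_52_P130952, was the only clock probe to pass. It gave -1.64, -2.08, -2.43 and -1.94 in STD mice and -2.73, -2.99, -2.66 and -2.92 in ATH mice. The diets did not overlap, as was the case for 19.9% of all detected probes and for no other clock probe. At this probe Nr1d1 fell by 0.80 on the log2 scale (SE 0.18, adjusted p = 0.0359), as 4.94% of all probes were called lower, with STD signal 1.74-fold that on ATH. In the fit blocked on mouse number (replicate block), which called 4.45% of all probes, its adjusted p was 0.0590, and the call was lost under 12 of 19 alternative settings, with differences from -0.94 to -0.36. Leaving out any array except that of ATH mouse 2 also lowered the number of calls over all detected probes. The third probe, A_52_P130961, gave a difference of -0.27 (SE 0.21, adjusted p = 0.414). All 3 probes had their lowest STD value in mouse 3 and their lowest ATH value in mouse 2.

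The probes that carried the larger differences are shown because they read different stretches of the gene. The design places A_51_P223776 at chr11:98878251-98878753 of mm7 on the minus strand, so that its 60 bases span 503 bases of the genome, and A_52_P130952 at chr11:98881057-98881116 on the same strand. Each is free of stop codons in 1 of its 3 forward frames.

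Nr1d1 probe A_51_P223776: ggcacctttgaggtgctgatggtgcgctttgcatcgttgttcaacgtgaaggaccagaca

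Nr1d1 probe A_52_P130952: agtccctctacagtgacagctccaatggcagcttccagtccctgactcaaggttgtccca

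Nr1d2, which encodes the related REV-ERBβ, gave 1.83, 1.77, 1.12 and 1.42 in STD mice and 1.28, 1.11, 0.99 and 0.93 in ATH mice. Again STD mouse 3 was the lowest of its diet and lay within the ATH range. The log2 difference was -0.46 (SE 0.18, adjusted p = 0.136), and it was -0.01 without scaling.

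Dbp encodes a PAR bZIP factor that drives rhythmic output genes of liver. It gave 4.38, 4.62, 1.67 and 3.51 in STD mice and 1.92, 0.81, 1.87 and 2.57 in ATH mice. Of the STD mice, 3 lay above every ATH mouse, and STD mouse 3 lay below 3 of the ATH mice. The mean was 3.55 ± 1.34 (SD, n = 4) on STD and 1.79 ± 0.73 (SD, n = 4) on ATH. The log2 difference was the largest of these genes at -1.76 (SE 0.63) but did not pass the threshold (adjusted p = 0.112, or 0.138 with the replicate block), and its 95% interval was -3.19 to -0.32. When STD mouse 3 was left out, the difference was -2.38 and the adjusted p 0.0463.

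Leaving out STD mouse 3 raised the calls to 2 of 10 genes (Dbp and Nr1d1) and to 3 of 17 probes, while calls over all detected probes fell from 7.99% to 1.27%. The array of this mouse correlated with the other STD arrays at a median of 0.989 and so did not stand apart over all probes. Over the clock genes it was the highest of its diet for Arntl, Clock, Npas2, Per2 and Cry1 and the lowest for Per1, Nr1d1, Nr1d2 and Dbp. It was thus at an end of its diet for 9 of 10 genes, whereas it was at an end for 47.4% of all detected probes. ATH mouse 2 was the highest of its diet for Arntl, Clock, Npas2 and Cry1 and the lowest for Per1, Nr1d1 and Dbp, at an end for 7 of 10 genes against 57.7% of all detected probes. Genes of one loop are not independent of each other, and these counts are descriptions made after the values were seen.

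Differences between genes on the same array are not changed by subtracting a constant from each array. They were set relative to the mean of the STD mice. Dbp minus Arntl was 1.17, 1.36, -2.43 and -0.10 in STD mice and -1.73, -3.06, -1.44 and -0.47 in ATH mice. STD mice 1, 2 and 4 lay above every ATH mouse, and STD mouse 3 lay below all but ATH mouse 2. Nr1d1 minus Arntl was 1.04, 0.51, -1.56 and 0.01 in STD mice and -1.02, -2.26, -0.70 and -0.98 in ATH mice, with the same arrays at the low ends. Per1 minus Arntl was 0.35, 0.29, -0.71 and 0.07 in STD mice and -0.09, -0.998, 2.94 and 1.72 in ATH mice, where ATH mice 3 and 4 stood above all others. By contrast, Cry1 minus Arntl stayed between -0.25 and 0.26 in STD mice and between -0.44 and 0.15 in ATH mice. All 9 clock genes set against Arntl in this way overlapped between the diets.

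**Figure D3:**
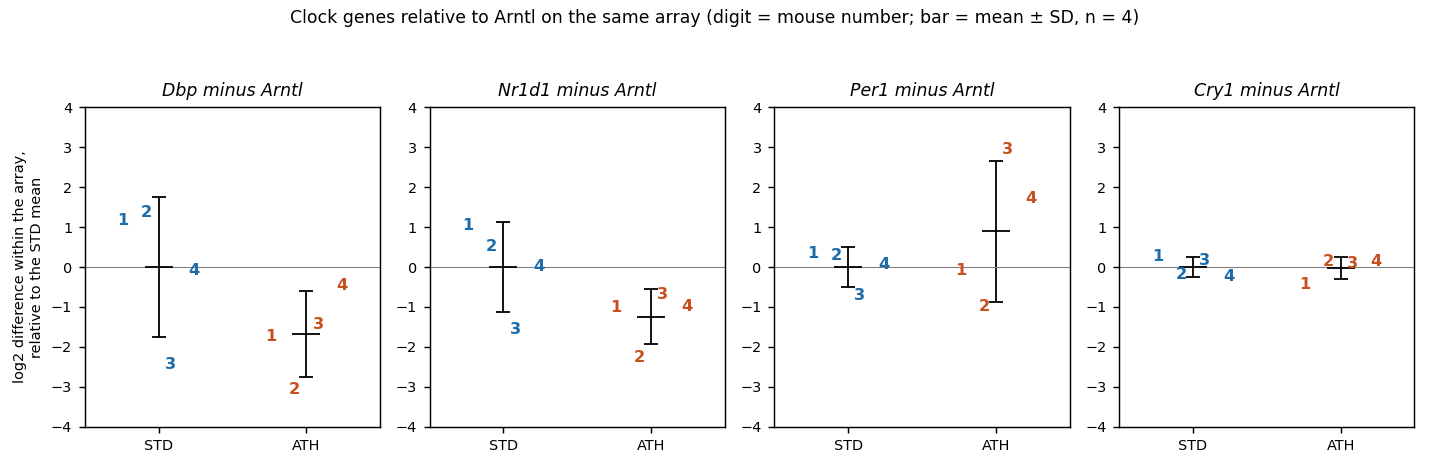
Difference in log2 signal between a clock gene and Arntl on the same array, relative to the STD mean (y axis, log2 units, the same range in each panel). Digits are mouse numbers, and bars give the mean ± SD of 4 mice. STD mouse 3 (-2.43) and ATH mouse 2 (-3.06) are the lowest of their diets for Dbp, while Cry1 stays within -0.44 to 0.26 of its STD mean in all mice.

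The spread between mice on the same diet was wide for part of the loop. The pooled within-diet SD was 1.08 for Dbp, 1.05 for Per1 and 0.62 for Nr1d1, beside a median of 0.27 over all detected probes. These 3 genes lay above the 90th percentile of all detected probes (98.9, 98.7 and 91.0), and 8 of the 10 genes lay above the median. Clock (35.3) and Nr1d2 (47.4) lay below it. For Dbp the spread was wider on STD (SD 1.34, against 0.73 on ATH), and for Per1 it was wider on ATH. No clock probe had a single mouse separated from the other 3 of its diet by Dixon's criterion.

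**Figure D4:**
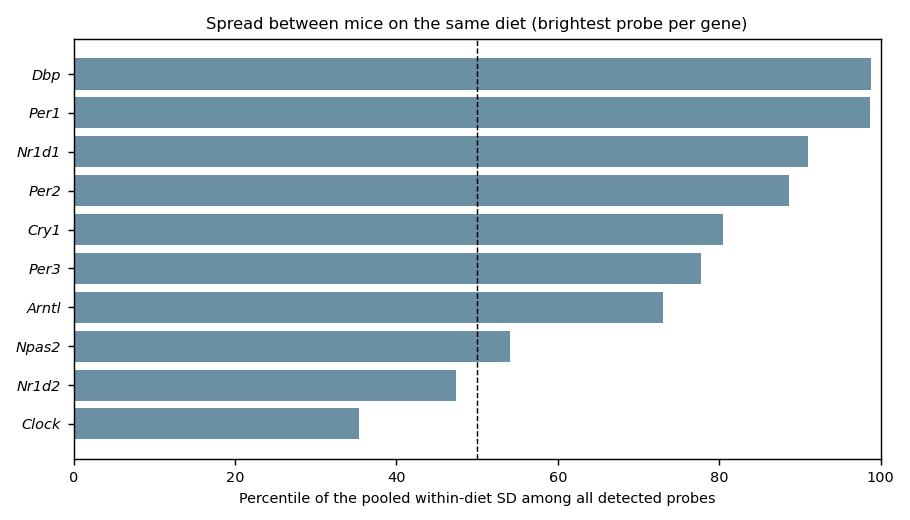
Percentile of the pooled within-diet SD of each clock gene (brightest probe, n = 4 mice per diet) among all detected probes, as bars from 0. Dbp (98.9), Per1 (98.7) and Nr1d1 (91.0) vary more between mice on the same diet than 90% of probes, and the dashed line marks the median probe.

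The genes outside the 10 clock genes whose profiles over the 8 arrays were nearest to that of Arntl, by the root mean square distance of centred values among 13448 candidate genes named through their accession, were H2-T24 (0.11), BC051019 (0.13), Pde6h (0.13), Olfr1093 (0.15) and Olfr94 (0.16), beside a root mean square of 0.34 for the Arntl profile itself. Of the clock genes, Cry1 was the nearest to Arntl (0.23). For Dbp they were Mindy4 (0.73), Cyp2g1 (0.76), Xirp2 (0.77), Btbd35f1 (0.79) and Olfr67 (0.81), beside 1.28 for Dbp itself. By the same measure Nr1d1, which the candidates left out as a clock gene, was nearer to Dbp (0.62) than any of these. Most of the genes nearest to Arntl or Dbp were dim, near the level of Per3. Scaled log2 signals were -5.21 to -4.04 for BC051019, -5.07 to -4.03 for Olfr1093 and -5.14 to -4.35 for Olfr94. They were -5.77 to -2.46 for Mindy4, -6.39 to -3.59 for Xirp2, -7.56 to -3.31 for Btbd35f1 and -6.04 to -4.29 for Olfr67. H2-T24, Pde6h and Cyp2g1 were brighter. Whether any of them varies with the clock was not tested.

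Other genes of the loop were counted in the same way. Of 17 such genes, 14 were detected (not Arntl2, Rorb and Ciart), and 0 passed an adjusted p of 0.05 by limma, beside 8.65% of all genes. At an unadjusted p under 0.05 limma reached 3 of them, as did the methods' test. Their median difference was -0.14, or 0.30 without scaling. The largest difference was that of Tef, a relative of Dbp, at -0.68 (adjusted p = 0.0545). It was followed by Cry2, the second cryptochrome gene, at -0.47 (adjusted p = 0.0850) and Rora, which encodes a ROR activator, at -0.46 (adjusted p = 0.0547). The diets did not overlap for Cry2 and Rora, as for 20.9% of all genes, and without scaling these differences were -0.02 and -0.01.

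Of 14 rhythmic output genes of liver, all were detected and 1 passed, with a lower signal, as did 5.2% of all genes. At an unadjusted p under 0.05 limma reached 6 of them and the methods' test 3, beside 28.4% of all detected probes by limma. Cyp2a5, a coumarin-hydroxylating cytochrome P450, gave 8.53, 8.24, 8.01 and 8.06 in STD mice and 7.44, 7.18, 6.73 and 7.17 in ATH mice, and it fell by 1.08 on the log2 scale (SE 0.18, adjusted p = 0.0180). The diets did not overlap. Cdkn1a, a cell cycle inhibitor, had a difference of 2.24 (adjusted p = 0.0539, or 0.0186 with the replicate block), and Rgs16, a regulator of G protein signalling, one of 1.95 (adjusted p = 0.224). The median over this list was -0.42, or 0.02 without scaling.

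Glucocorticoids and body temperature can shift the phase of peripheral clocks, and genes that respond to each were counted. Of 6 detected glucocorticoid-responsive genes, 1 passed with a lower signal, beside 5.2% of all genes. At an unadjusted p under 0.05 limma reached 3 and the methods' test 2, beside 28.4% of all detected probes by limma. Tat, which encodes tyrosine aminotransferase, gave 7.04, 7.04, 7.47 and 7.30 in STD mice and 6.04, 6.21, 6.02 and 6.36 in ATH mice, and it fell by 1.05 (SE 0.15, adjusted p = 0.0104). Mt2, a metallothionein, had a difference of 2.62 (adjusted p = 0.0894), with its highest value, 7.10, in ATH mouse 3. Sgk1, a serum and glucocorticoid regulated kinase, had one of 0.83 (adjusted p = 0.0924). The list's median was 0.28, or 0.73 without scaling.

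Of 6 detected temperature-responsive genes, 0 passed for diet by limma, 0 also at an unadjusted p under 0.05 and by the methods' test, beside 8.65% of all genes and, unadjusted, 28.4% of all detected probes. Their median was -0.12 (0.33 on unscaled values). The largest differences were 0.97 for Hspa1a (adjusted p = 0.375), an inducible heat shock protein, -0.32 for Hspa8 (adjusted p = 0.552), its constitutive relative, and -0.25 for Hsph1 (adjusted p = 0.822), a co-chaperone, the last pair being 0.13 and 0.20 on unscaled values. Hspa1a reached 1.75 in ATH mouse 3 and -0.06 in ATH mouse 4, the mice with high Per1, and lay between -2.01 and -1.22 in all others. Hsph1 was 2.93, 3.71, 5.34 and 4.71 in STD mice and 2.67, 3.56, 5.32 and 4.12 in ATH mice, so that mice of the same number had similar values on both diets. Cirbp, a cold-inducible RNA-binding protein named here after its values were seen, ran the other way, with 2.55, 2.71, 0.99 and 1.82 in STD mice and 3.02, 3.19, 0.11 and 1.65 in ATH mice. For 4 of these 6 genes (also Hspa8 and Hsp90aa1) the mice ranked in the same order by number on both diets, as did 1 of the 10 clock genes (Per2) and 8.89% of all detected probes. Arrays of the same number lie at the same position on their slides, so number and slide position cannot be told apart. The lowest Cirbp and the highest Hsph1 of the STD diet were in mouse 3, the mouse that also had the highest Arntl and the lowest Dbp of its diet. In ATH mice the same extremes lay in mouse 3 for Cirbp and Hsph1 but in mouse 2 for Arntl and Dbp. The part of temperature in the clock values was not tested.

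**Figure D5:**
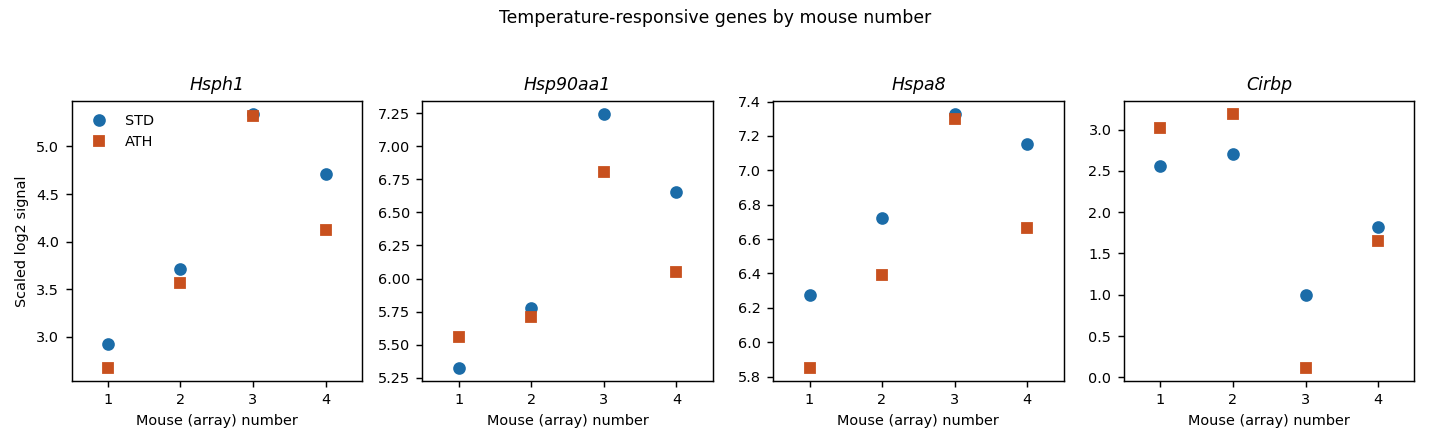
Scaled log2 signal (y axis) of 4 temperature-responsive genes by mouse number as in the labels (x axis), for STD (circles) and ATH (squares), one point per mouse. The panels are the 4 of the 6 detected genes of this list whose numbers rank alike on both diets. Hspa1a and Dnajb1, which do not, are left out. Arrays of the same number share a slide position. Mouse 3 is the highest for Hsph1 (5.34 and 5.32) and the lowest for Cirbp (0.99 and 0.11).

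Whole liver holds several cell types, and in such samples fewer cells of a type and less RNA per cell cannot be told apart. Of 8 macrophage markers, 5 rose on ATH, as did 3.46% of all genes (Cd68 by 1.92, Lyz2 by 2.27, Cd14 by 2.56, Itgax by 3.91 and Mpeg1 by 1.89 on the log2 scale), and 3 of the 8 (Lyz2, Itgax and Mpeg1) passed with the replicate block. All 8 macrophage markers had a positive difference, and 7 reached an unadjusted p under 0.05 by limma. The methods' test reached it for 5 of them and for none after adjustment. The log2 of the summed signal of these 8 markers was 5.95 to 6.34 on STD and 6.85 to 8.92 on ATH, lowest in ATH mouse 2 and highest in ATH mice 3 and 4, which were also the lowest and highest for Per1. Of 8 stellate cell markers, 1 was called higher (Col3a1, by 1.74), beside the same 3.46% of all genes, and the log2 summed signal was 3.66 to 3.97 on STD and 4.22 to 5.31 on ATH. All 8 had a positive difference, and 4 reached an unadjusted p under 0.05 by limma and 3 by the methods' test. Of 9 T and B cell markers 0 passed by limma (4 at an unadjusted p under 0.05, and 1 by the methods' test), beside 8.65% of all genes and, unadjusted, 28.4% of all detected probes, with a log2 summed signal of 0.72 to 1.12 on STD and 0.54 to 2.13 on ATH. Of 4 detected neutrophil markers 0 passed by limma (2 at an unadjusted p under 0.05, as by the methods' test, and 2, S100a8 and S100a9, with the replicate block, where 4.45% of all detected probes passed), beside those same shares, with 0.33 to 1.56 on STD and 1.52 to 3.80 on ATH. The part of these cell types in the clock gene values was not tested.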

How the data were processed

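Liver RNA of 4 STD and 4 ATH mice was hybridised to 1 array each. The authors acquired the arrays with Agilent Feature Extraction 9.5 (submitters' processing notes), and the deposited array output holds background-subtracted processed intensity for each spot. A second file deposited by the authors holds log2 values, which within 0.001 equalled the log2 processed signal with the 75th percentile of the array taken off and a constant per probe for 99.6% of 31056 probes. Its median per array ran from -0.04 to 0.16, and its baseline is not given in the sources used here.

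Control spots and spots flagged as outliers were left out, spots of a probe were averaged, and the 75th percentile over non-control probes was subtracted from log2 signal on each array. A probe was kept when it was well above background on at least 3 of 4 arrays of either diet. Diets were compared with limma 3.58.1 in R 4.3.3 (moderated test, two-sided, with Benjamini-Hochberg adjustment at 5%, and at 1% as in the study), and a gene was read at its probe with the highest mean. The steps were tested on simulated data. Summaries and plots used Python 3.11.15, pandas 2.3.3, numpy 2.4.6 and matplotlib 3.10.9. The number of arrays, 4 per diet, limits the precision.

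The clock genes and the lists beside them were chosen with earlier results of these data known. Every clock gene was named with all its probes. From each other list of loop, output and responsive genes those called were named, or the 3 with the largest absolute difference where fewer than 3 were called. From the cell type marker lists only genes called by limma, with or without the block, were named. Also named were the 5 genes outside the clock genes with the profile nearest to Arntl and to Dbp. The lists had no probe for Zbtb16, Hspa1b, Serpina1a and Ly6g, and Elane was not detected.

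Arrays of the same number lie at the same position on their slides, and their deviations from the diet means correlated across probes at 0.10, 0.23, 0.18 and 0.18, each over 0.1. Since same-numbered arrays share a slide position and the labels tie no mice across diets, these values do not show that mice were paired. The main comparison was fitted without pairing, and it was also fitted with that number as a block. Other alternatives covered the scaling (median, percentile over spots, quantile, spike-in probes, none), the background (normexp, offset 50), the deposited values, the filter, the probe per gene, the test of the methods, the threshold and each array left out. A slide block could not be fitted, since each slide holds a single diet. Promoter windows came from RefSeq (GRCm38.p6) and probe sequences and their mm7 positions from the array files.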

Additional observations from a re-analysis of the deposited data

How the results depend on the processing

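The number of clock genes called (0 of 10) was 1 with normexp background correction, and leaving out 1 array at a time gave 0 to 2, with 2 only without STD mouse 3. The number of clock probes called (1 of 17) was 2 with normexp and 0 with median scaling, no scaling, spike-in scaling, no filter on dim probes, the methods' test, the 1% threshold and the replicate block, and leaving out 1 array gave 0 to 3, with 3 without STD mouse 3, 1 without ATH mouse 2 and 0 without any other mouse. Over all detected probes 949 were called higher and 1533 lower with every array kept. These counts were 140 and 272 without STD mouse 1, 313 and 708 without STD mouse 2, and 148 and 246 without STD mouse 3. They were 189 and 314 without STD mouse 4, 598 and 1080 without ATH mouse 1, and 1769 and 2217 without ATH mouse 2. Without ATH mouse 3 they were 221 and 421, and without ATH mouse 4 they were 189 and 304. With the replicate block the adjusted p of the Nr1d1 probe A_52_P130952 was 0.0590, and the block changed no other clock call. Other loop genes (0 called) gave 1 without scaling and 0 to 1 with 1 array left out, with 1 only without ATH mouse 2. Rhythmic output genes (1 called) gave 4 without scaling, 2 with spike-in scaling, 2 with the replicate block and 0 at 1%, and 0 to 4 with 1 array left out (0 without STD mouse 1 or ATH mouse 4, 2 without STD mouse 3 and 4 without ATH mouse 2). Glucocorticoid-responsive genes (1 called) gave 3 without scaling and 0 at 1%, and 1 to 2 with 1 array left out, with 2 only without ATH mouse 2. Of all 31056 detected probes, 6991 were called higher and 374 lower without scaling, and 2536 and 398 with spike-in scaling. The replicate block called 4.45% of them and the 1% threshold 0.528%. Differences that turned their sign were all of genes that passed under none of these settings. Without scaling and with spike-in scaling they were 0.37 and 0.23 for Arntl, 0.20 and 0.067 for Clock, 0.14 and 0.0051 for Per3 and 0.35 and 0.21 for Cry1. Without STD mouse 3 Arntl was 0.10 and Cry1 0.14, and without ATH mouse 4 Arntl was 0.063, with Arntl from -0.21 to 0.10 over all arrays left out. Npas2 was -0.017 with the percentile over spots, -0.28 with normexp, -0.01 without STD mouse 1, -0.04 without STD mouse 2 and -0.15 without ATH mouse 2. Of 218 alternative differences of clock genes, 187 kept direction and side of the threshold, 16 turned their sign, 12 lost a call and 3 gained one. The other Per2 probe, A_52_P536869, was -0.12 in the main fit. At the brightest probe, or for the mean of a gene's probes, Dbp, Nr1d1 and Nr1d2 were negative, and Per1 and Per2 positive, under all alternatives run. The cause of these changes was not tested. The hour of collection, the slide and the 4 arrays per diet limit what these values show, and dim probes such as that of Per3 lie near background.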
